A study of Mus musculus with 10 samples.

Results

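The autophagy machinery was followed through 37 mouse genes that encode the proteins building the autophagosome, the receptors that load it and 1 transcription factor of the pathway. The genes were taken by name, through RefSeq symbols and synonyms, from the 21613 named genes on the array, and the rule that takes them uses no measured value. The list itself, however, was chosen with earlier results of these data known. All 37 had a probe. Of these, 36 passed the detection filter and were tested among 22183 features. Atg4a did not: its probe was not well above background on any of the 10 arrays.

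Livers of 10 male TG221 mice were measured, 1 Agilent one-colour array per mouse. The metformin plus CCl4 group held 6 mice and the CCl4 group held 4. Every mouse of both groups carried the miR-221 transgene on a B6D2F2 background, so miR-221, a microRNA raised in many liver cancers, was in excess in both. Every mouse was also gavaged from 4 to 6 weeks of age with 20% (v/v) carbon tetrachloride (CCl4), a hepatotoxin that scars the liver, 3 times a week for 14 weeks. The metformin plus CCl4 mice additionally received the biguanide metformin by mouth at 300 mg/kg each day, beginning 3 weeks into the CCl4 course. Livers of both groups were collected at 24 weeks. No mouse without CCl4 and none without the transgene was analysed here, and the promoter driving the transgene is not given in the sources used here. The tissue is labelled both liver and hepatocellular carcinoma. All 6 hepatocyte markers examined, Alb and Cyp2e1 among them, were well above background on every array, as were 3 of 4 carcinoma markers, the exception being Gpc3 (4 of 6 metformin plus CCl4 arrays and all 4 CCl4 arrays).

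Autophagy wraps cytoplasm in a double membrane, the autophagosome, and delivers it to the lysosome for breakdown. A kinase complex built on Ulk1 starts the process, a lipid kinase complex built on Becn1 marks the growing membrane, and a pair of ubiquitin-like conjugation reactions attach the Atg8 proteins (the LC3 and GABARAP families) to it, where cargo receptors such as Sqstm1 bind. In the liver the pathway recycles mitochondria, glycogen, lipid droplets and protein aggregates, and the kinase AMPK, which metformin activates, and the nutrient sensor mTORC1 act on its first step. The arrays measured mRNA, and the amount of autophagic breakdown was not measured.

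Levels below are log2 of the processed spot intensity minus the 75th percentile of the same array, so a step of 1 is a 2-fold difference. They can be compared between mice for 1 probe and not between genes. A gene was called changed at an adjusted p below 0.05 in limma, with Benjamini-Hochberg adjustment over all 22183 features, and fold changes are metformin plus CCl4 over CCl4, given with the SE of the fit unless marked SD. Calls were common on these arrays: 45.4% of all features were called, 28% higher and 17.4% lower, and among named genes alone 47.4%, 27.7% higher and 19.7% lower. The 75th percentile itself lay between 237 and 363 intensity units, 51.2% to 54.9% of probes per array were well above background, and no spot was saturated. Each group lay on its own slide, so slide and treatment cannot be told apart. RNA came from whole liver, where fewer cells of a type and less RNA per cell cannot be told apart.

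Of the 36 tested genes, 20 passed the threshold, 12 higher and 8 lower with metformin, which is 55.6% of them beside 45.4% of all features. Of the 12, Atg9b passed the detection filter through the metformin plus CCl4 arrays alone and so had to differ; among the other 35 genes 19 were called (54.3%), 11 higher and 8 lower. Their median log2 fold change was 0.21, beside 0.10 for all features. In 15 of these 19, 10 higher and 5 lower, and in Atg9b, no metformin plus CCl4 mouse overlapped a CCl4 mouse, and such separation was found for 33.7% of all features, 21.4% higher and 12.2% lower (35.9% of named genes). Genes called higher and genes called lower stood side by side in 5 of the 8 role groups. In the lipid transfer group, among these 5, Atg9b was the only gene called higher. The largest measured rises were those of Bnip3, Tfeb and Gabarapl1, at log2 fold changes of 1.10, 1.07 and 1.04, beside Atg9b, for which the arrays give only a bound, and the largest falls those of Uvrag, Atg2a, Sqstm1 and Becn1, at -1.17, -0.93, -0.85 and -0.79.

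These directions are relative to the bulk of the RNA on the same array. Scaled to the 8 spike-in transcripts instead, the median of all features was -0.45 in place of 0.10, and 8.8% of the called features were higher, against 61.7% with the 75th percentile. Of the 12 genes called higher, Atg9b, Bnip3, Tfeb, Gabarapl1, Ambra1 and Atg4c kept a positive sign under that scaling, whereas Ulk2, Rb1cc1, Atg3, Atg10, Atg4d and Gabarap turned negative. Spike-in scaling lowered every log2 fold change by a common amount, so the 8 genes called lower could not change sign. Under that scaling 12 genes were called lower and 1, Atg9b, higher. Those 12 were the 8 together with Atg13, Pik3c3, Atg7 and Wipi2, at -0.72, -0.77, -0.57 and -0.49. The percentile and spike-in scalings each subtract 1 constant per array. A gene's distance from the median of all features is therefore the same under either by arithmetic. Measured that way Gabarapl1 stood at 0.94 and Becn1 at -0.90, which is no check of 1 scaling by the other.

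**Figure D1:**
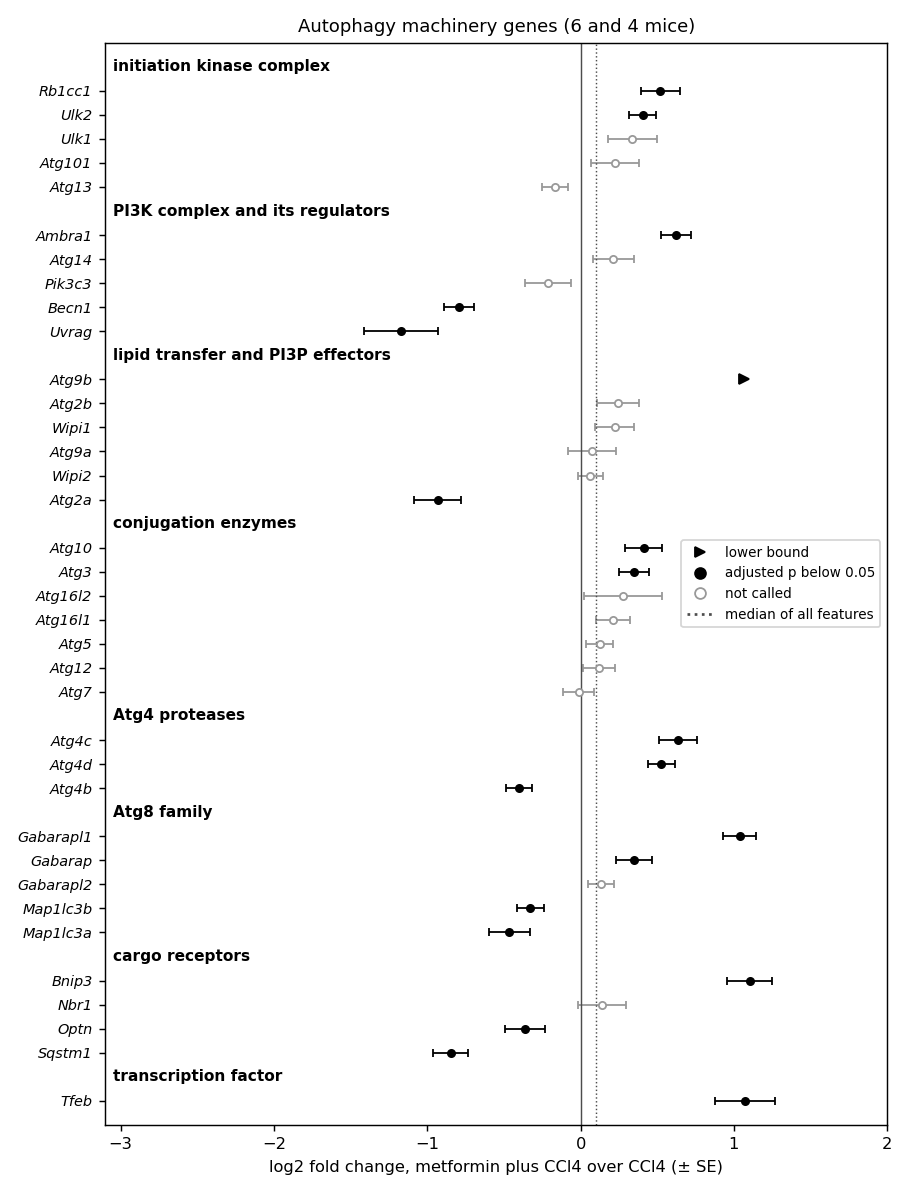
Log2 fold change (x axis, metformin plus CCl4 over CCl4, ± SE of the limma fit) of each of the 36 tested autophagy genes, grouped by role; filled points passed an adjusted p of 0.05, open points did not, the triangle is the lower bound of Atg9b (1.07), whose CCl4 level was not well above background, and the dotted line is the median of all features, 0.10. Points lie on both sides of 0 in most groups, from Uvrag at -1.17 to Bnip3 at 1.10; under spike-in scaling Ulk2, Rb1cc1, Atg3, Atg10, Atg4d and Gabarap would fall left of 0.

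The initiation kinase complex had 2 of its 5 genes called, both higher but below 0 under spike-in scaling. Rb1cc1, the FIP200 scaffold of the complex, ran from 1.72 to 2.15 with a median of 1.89 in metformin plus CCl4 livers, against 1.14, 1.53, 1.60 and 1.22 in CCl4 mice 1 to 4. The groups did not overlap, although CCl4 mice 2 and 3 came close to the lowest metformin plus CCl4 mouse. Its log2 fold change was 0.52 ± 0.13 (SE, adjusted p = 0.00674, limma), and it was -0.03 under spike-in scaling; with the array median as the scale it missed the threshold (adjusted p = 0.0506, limma). A second Rb1cc1 probe gave 0.29 ± 0.17 (adjusted p = 0.188 over all kept probes, limma).

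Ulk2, a kinase of the complex, ran from 1.91 to 2.19 with a median of 2.12 in metformin plus CCl4 livers, against 1.59, 1.64, 1.64 and 1.88 in CCl4 mice 1 to 4. The groups were separated by a narrow gap between metformin plus CCl4 mouse 3 and CCl4 mouse 4. Its log2 fold change was 0.41 ± 0.09 (adjusted p = 0.00424, limma), and it was -0.15 under spike-in scaling. A second Ulk2 probe, called too, gave 0.64 ± 0.13 (adjusted p = 0.00259 over all kept probes, limma). The other kinase, Ulk1, did not pass. It ran from 5.91 to 6.40 with a median of 6.09 in metformin plus CCl4 livers, against 6.06, 5.96, 5.79 and 5.30 in CCl4 mice 1 to 4. CCl4 mice 1 and 2 lay inside the metformin plus CCl4 range and CCl4 mouse 4 lay far below it, and the difference of 0.34 had a 95% interval of -0.03 to 0.70 (adjusted p = 0.107, limma). Atg13 and Atg101, the adaptor subunits, had log2 fold changes of -0.17 and 0.22 and did not pass. Atg13 did pass, as lower, under quantile normalization and under spike-in scaling (adjusted p = 0.0133 and 0.0056, limma). Without CCl4 mouse 4, whose Atg101 level of 4.53 was far above the 3.74 to 4.17 of the other CCl4 mice, Atg101 passed at 0.37 (adjusted p = 0.0418, limma).

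The lipid kinase complex contained genes that moved in opposite directions. Becn1, the Beclin 1 subunit around which the complex is built, ran from 1.51 to 1.90 with a median of 1.57 in metformin plus CCl4 livers, against 2.36, 2.40, 2.52 and 2.49 in CCl4 mice 1 to 4. The 4 CCl4 mice lay close together and well above every metformin plus CCl4 mouse. Becn1 fell with a log2 fold change of -0.79 ± 0.10, or 0.576 times the CCl4 level (adjusted p = 0.000181, limma). Ambra1, a scaffold that links Beclin 1 to the initiation kinase, ran from 2.21 to 2.55 with a median of 2.39 in metformin plus CCl4 livers, against 1.75, 1.69, 1.63 and 1.93 in CCl4 mice 1 to 4. The groups did not overlap, and the log2 fold change was 0.62 ± 0.10 (adjusted p = 0.000653, limma) but 0.07 under spike-in scaling (adjusted p = 0.755, limma).

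Uvrag, a Beclin 1 partner that works mainly on endosomes and late autophagosomes, had the largest fall, -1.17 ± 0.24 (adjusted p = 0.00291, limma), but its groups overlapped. Metformin plus CCl4 mice ran from 3.09 to 3.59 with a median of 3.30, and CCl4 mice 1 to 4 had 4.91, 4.70, 4.84 and 3.58. CCl4 mouse 4 alone lay within the metformin plus CCl4 range, and the 3 others stood far above it. Without CCl4 mouse 4 the log2 fold change was -1.48. With the 2 metformin plus CCl4 mice and 4 CCl4 mice of slide row 1 alone, the log2 fold change was of like size, -1.10, and did not pass with fewer mice (adjusted p = 0.0819, limma). Pik3c3, the catalytic subunit, and Atg14, the partner that directs the complex to autophagosome formation, had log2 fold changes of -0.21 and 0.21, and neither passed. The interval for Atg14 was -0.10 to 0.52.

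Of 6 genes that move lipid to the growing membrane or bind the lipid made by the Beclin 1 complex, 2 passed. Atg2a was lower, and Atg9b, which had to differ because of the detection filter, was higher. Atg9b, a lipid scramblase and the less widely expressed of the mammalian Atg9 proteins, ran from -3.87 to -3.19 with a median of -3.45 in metformin plus CCl4 livers, against -4.91, -5.17, -4.85 and -4.94 in CCl4 mice 1 to 4. It was well above background on all 6 metformin plus CCl4 arrays and on none of the CCl4 arrays, so only a bound holds for the CCl4 level. Metformin plus CCl4 livers averaged -3.52 ± 0.27 and CCl4 livers read -4.97 ± 0.14 (SD). Against the lowest signal counted as above background, the metformin plus CCl4 level was at least 2.10-fold higher. The fit's adjusted p was 6.34e-05 (limma), but it rests on the CCl4 readings below background. With normexp background correction, which adds an offset of 50 to the intensity, the group means lay 0.30 apart on the log2 scale (adjusted p = 0.0476, limma). Its counterpart Atg9a, found in most tissues, did not pass, with a log2 fold change of 0.07.

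Atg2a, a bridge protein that carries lipid into the membrane, ran from 1.98 to 2.42 with a median of 2.18 in metformin plus CCl4 livers, against 2.94, 3.40, 3.44 and 2.73 in CCl4 mice 1 to 4. Every metformin plus CCl4 mouse lay below every CCl4 mouse, and the log2 fold change was -0.93 ± 0.15 (adjusted p = 0.000886, limma). Its paralog Atg2b had a log2 fold change of 0.24 (adjusted p = 0.174, limma) and passed only without metformin plus CCl4 mouse 4, the lowest of its group (0.32, adjusted p = 0.0454, limma). Wipi1 and Wipi2, which bind the lipid made by the Beclin 1 complex, had log2 fold changes of 0.22 and 0.06 and did not pass. A second Wipi2 probe was called lower, at -0.39 ± 0.08 (adjusted p = 0.00387 over all kept probes, limma), so the 2 probes of Wipi2 disagree.

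Of 7 conjugation enzymes Atg10 and Atg3 passed, both higher, and neither direction held under spike-in scaling, where they had -0.14 and -0.21. With the array median as the scale neither passed (adjusted p = 0.105 and 0.129, limma). Atg10, which transfers Atg12 to Atg5, ran from -0.52 to 0.01 with a median of -0.36 in metformin plus CCl4 livers, against -0.72, -0.78, -0.72 and -0.64 in CCl4 mice 1 to 4. The CCl4 mice were tightly grouped below all 6 metformin plus CCl4 mice, 3 of which came near them, and the log2 fold change was 0.41 ± 0.12 (adjusted p = 0.0167, limma). Atg3, which transfers the Atg8 proteins to lipid, ran from 3.22 to 3.64 in metformin plus CCl4 livers, against 3.02 to 3.20 in CCl4 livers, with a log2 fold change of 0.35 ± 0.10 (adjusted p = 0.0132, limma).

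Atg7, the enzyme that activates both Atg12 and the Atg8 proteins, and the parts of the conjugate that Atg12 forms with Atg5 and an Atg16 protein did not pass. Their log2 fold changes were -0.01 for Atg7, 0.12 for Atg5, 0.12 for Atg12, 0.21 for Atg16l1 and 0.28 for Atg16l2. Second probes of Atg7 and Atg12 gave other results. The second Atg7 probe averaged -0.10 in metformin plus CCl4 livers and 0.63 in CCl4 livers, a log2 fold change of -0.72 ± 0.13 (adjusted p = 0.00159 over all kept probes, limma). The second Atg12 probe was called higher, at 0.46 ± 0.11 (adjusted p = 0.00644 over all kept probes, limma). Whether those probes read other transcripts of the genes was not tested.

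All 3 tested Atg4 proteases, which trim the Atg8 proteins before conjugation and release them from lipid, passed with separated groups. Atg4c ran from 1.10 to 1.25 with a median of 1.17 in metformin plus CCl4 livers, against 0.31, 0.50, 0.40 and 0.99 in CCl4 mice 1 to 4. Atg4d ran from 4.50 to 4.84 with a median of 4.62 in metformin plus CCl4 livers, against 4.08, 4.16, 4.14 and 4.12 in CCl4 mice 1 to 4. Both rose, by 0.63 ± 0.13 for Atg4c (adjusted p = 0.00236, limma) and 0.53 ± 0.09 for Atg4d (adjusted p = 0.000874, limma), but under spike-in scaling Atg4c had 0.08 and Atg4d -0.03, and Atg4c did not pass in slide row 1 alone, where it had 0.63 (adjusted p = 0.0669, limma). CCl4 mouse 4 was the one CCl4 mouse near the metformin plus CCl4 range for Atg4c, whereas no CCl4 mouse came near it for Atg4d. Atg4b, regarded as the main protease of the family, fell instead. It ran from -0.18 to 0.04 with a median of -0.07 in metformin plus CCl4 livers, against 0.34, 0.46, 0.17 and 0.41 in CCl4 mice 1 to 4. The groups did not overlap, and the log2 fold change was -0.40 ± 0.09 (adjusted p = 0.00373, limma).

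The Atg8 family, whose members are attached to the autophagosome membrane, held 2 genes called higher, both of the GABARAP branch, and 2 called lower, both of the LC3 branch. Gabarapl1 ran from 8.39 to 8.64 with a median of 8.52 in metformin plus CCl4 livers, against 7.20, 7.58, 7.67 and 7.48 in CCl4 mice 1 to 4. Mice within a group lay close together with a wide gap between the groups. Gabarapl1 rose with a log2 fold change of 1.04 ± 0.11, or 2.05-fold (adjusted p = 8.17e-05, limma), and 0.48 under spike-in scaling (adjusted p = 0.0528, limma). Gabarap rose by 0.35 ± 0.12 with overlapping groups (adjusted p = 0.0316, limma) but had -0.20 under spike-in scaling. It lost the call in 7 of the 10 fits without 1 mouse, had 0.12 in slide row 1 alone (adjusted p = 0.522, limma), and a second probe gave 0.03. Gabarapl2, at 0.13, did not pass.

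Map1lc3b, the LC3 gene most used as an autophagosome marker, ran from 5.07 to 5.25 with a median of 5.17 in metformin plus CCl4 livers, against 5.53, 5.62, 5.55 and 5.27 in CCl4 mice 1 to 4. CCl4 mouse 4 lay just above the highest metformin plus CCl4 mouse and the other CCl4 mice stood clear of it. A log2 fold change of -0.33 ± 0.09 was found (adjusted p = 0.0118, limma). With a term for slide row and in slide row 1 alone it was -0.26 and did not pass (adjusted p = 0.109 and 0.188, limma). Map1lc3a ran from 2.33 to 2.77 in metformin plus CCl4 livers, against 2.74 to 3.21 in CCl4 livers, and fell by 0.47 ± 0.13 with overlapping groups (adjusted p = 0.0166, limma). That call was lost without CCl4 mouse 2, without CCl4 mouse 3, with a term for slide row (-0.49, adjusted p = 0.0685, limma) and in slide row 1 alone (-0.49, adjusted p = 0.0918, limma), the last 2 at a fold change no smaller than the one above.

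Differences between probes of 1 array do not change when a constant is subtracted from the array, as the percentile, median and spike-in scalings do. Gabarapl1 minus Map1lc3b ran from 3.14 to 3.52 in metformin plus CCl4 livers, against 1.67 to 2.21 in CCl4 livers, so the distance between these probes was 1.37 log2 units wider with metformin. Gabarapl1 minus Map1lc3a averaged 5.98 ± 0.16 in metformin plus CCl4 livers and 4.48 ± 0.19 in CCl4 livers (SD, n = 6 and 4). The distances to Gabarap and Gabarapl2 were wider by 0.69 and 0.91. In all 4 pairs the groups did not overlap. The pairs were chosen with the levels known, and the values show that the genes changed unequally, not which of them stayed level.

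**Figure D2:**
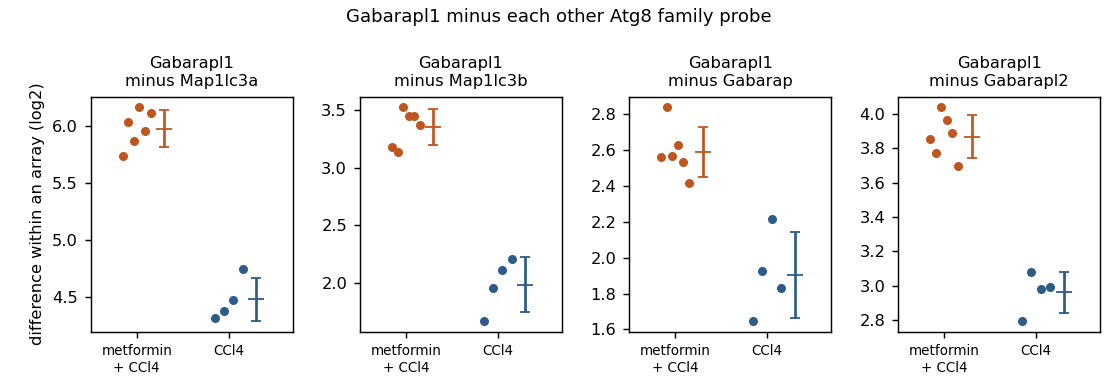
Gabarapl1 minus each other Atg8 family probe on the same array (y axis, log2 units), 1 point per mouse with mean and SD, metformin plus CCl4 (6 mice, left) and CCl4 (4 mice, right). Every metformin plus CCl4 mouse lies above every CCl4 mouse in all 4 panels.

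Cargo receptors also moved in both directions. Sqstm1 (p62), which carries ubiquitinated cargo and is itself degraded by autophagy, ran from 3.01 to 3.39 with a median of 3.09 in metformin plus CCl4 livers, against 3.71, 4.05, 4.17 and 4.04 in CCl4 mice 1 to 4. Every metformin plus CCl4 mouse lay below every CCl4 mouse. Its level fell with a log2 fold change of -0.85 ± 0.12, or 0.556 times the CCl4 level (adjusted p = 0.000294, limma). Optn, a receptor for damaged mitochondria and bacteria, fell by 0.36 ± 0.13 with overlapping groups (adjusted p = 0.0466, limma) and lost its call in 9 of the 10 fits without 1 mouse; in slide row 1 alone it was -0.16 (adjusted p = 0.38, limma). Nbr1, which acts beside Sqstm1, had a log2 fold change of 0.14 and did not pass.

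Bnip3, a hypoxia-induced receptor on the mitochondrial outer membrane, ran from 6.39 to 6.94 with a median of 6.81 in metformin plus CCl4 livers, against 5.60, 5.47, 5.91 and 5.41 in CCl4 mice 1 to 4. The groups were well separated, with 2 metformin plus CCl4 mice lower than the other 4. The log2 fold change was 1.10 ± 0.15, or 2.15-fold (adjusted p = 0.000261, limma), and 0.55 under spike-in scaling (adjusted p = 0.0583, limma). Its other 2 probes were also called higher, at 0.89 ± 0.17 and 0.68 ± 0.18 (adjusted p = 0.00194 and 0.01 over all kept probes, limma).

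Tfeb, the transcription factor that switches on lysosomal and autophagy genes, ran from -1.22 to -0.60 with a median of -0.94 in metformin plus CCl4 livers, against -2.48, -1.93, -2.15 and -1.44 in CCl4 mice 1 to 4. The groups did not overlap, but CCl4 mouse 4 lay close to the lowest metformin plus CCl4 mice and the CCl4 mice spread widely. The log2 fold change was 1.07 ± 0.19, or 2.10-fold (adjusted p = 0.00145, limma), and 0.52 under spike-in scaling (adjusted p = 0.125, limma) and 0.71 with normexp (adjusted p = 0.000861, limma). Tfeb is controlled largely by its phosphorylation and nuclear entry, which arrays do not measure.

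**Figure D3:**
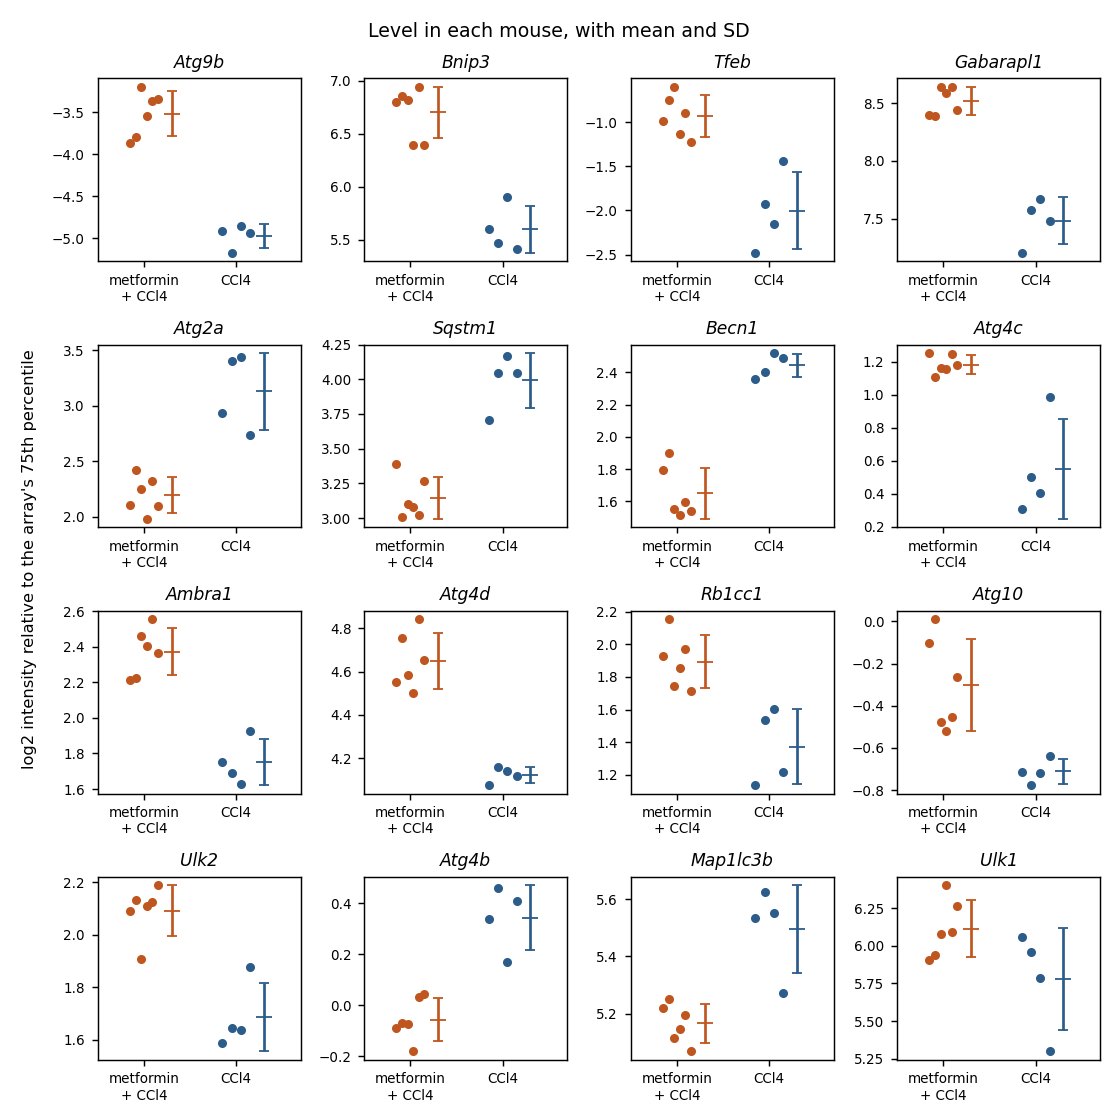
Level of 16 autophagy genes in each mouse (y axis, log2 processed intensity minus the array's 75th percentile; axes differ between panels and start off 0), metformin plus CCl4 (6 mice, left) and CCl4 (4 mice, right), with mean and SD. Groups do not overlap in any panel but that of Ulk1. In the Map1lc3b, Ulk2, Atg4c, Tfeb, Ambra1, Atg2a and Atg10 panels CCl4 mouse 4 is the CCl4 mouse nearest to the metformin plus CCl4 mice. In the Atg9b panel the CCl4 points are readings not well above background.

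Tfeb binds DNA at E-boxes, CACGTG, and most strongly where the E-box is extended, as in TCACGTGA. RefSeq promoter windows (GRCm38.p6, 250 bases before to 50 after the start) were matched for 31 of the 37 genes, in 36 windows. CACGTG, which reads the same on both strands, lay in the windows of 5 genes, Atg3, Atg5, Atg7, Atg14 and Bnip3, or 13.9% of the 36 windows beside 7.15% of the 32851 windows of all genes. TCACGTGA, which contains CACGTG and also reads the same on both strands, lay in that of Atg3, or 2.78% of the windows beside 0.974%. Of the 5 genes, Bnip3 and Atg3 were called higher and the other 3 were not called. Called higher were 12 of the 36 tested autophagy genes and 28% of all features. Atg3 had -0.21 under spike-in scaling, and the second Atg7 probe was called lower, at -0.72. The windows of Bnip3 and Atg3 are printed with those of Gabarapl1, which rose, and Sqstm1, which fell, to show promoters with and without the motif. They run 5′ to 3′ along the gene with each CACGTG in capitals.
Gabarapl1 (chr6:129532942-129533241, plus strand): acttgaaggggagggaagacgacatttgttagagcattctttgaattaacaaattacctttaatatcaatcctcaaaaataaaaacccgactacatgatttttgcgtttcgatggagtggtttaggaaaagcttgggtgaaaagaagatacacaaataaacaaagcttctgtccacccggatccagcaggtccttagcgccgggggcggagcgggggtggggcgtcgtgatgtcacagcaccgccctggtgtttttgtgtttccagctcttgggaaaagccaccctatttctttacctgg
Bnip3 (chr7:138909457-138909756, minus strand): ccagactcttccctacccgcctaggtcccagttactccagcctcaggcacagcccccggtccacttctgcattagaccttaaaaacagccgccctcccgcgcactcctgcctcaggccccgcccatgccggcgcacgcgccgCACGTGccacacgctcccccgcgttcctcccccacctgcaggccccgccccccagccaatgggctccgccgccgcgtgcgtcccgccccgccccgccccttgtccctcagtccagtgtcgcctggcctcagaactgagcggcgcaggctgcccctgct
Atg3 (chr16:45158579-45158878, plus strand): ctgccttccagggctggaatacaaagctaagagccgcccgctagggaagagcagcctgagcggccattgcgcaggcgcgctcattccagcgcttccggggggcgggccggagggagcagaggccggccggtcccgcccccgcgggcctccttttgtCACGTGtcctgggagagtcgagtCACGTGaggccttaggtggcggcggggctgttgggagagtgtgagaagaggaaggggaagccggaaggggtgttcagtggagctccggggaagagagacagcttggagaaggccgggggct
Sqstm1 (chr11:50210771-50211070, minus strand): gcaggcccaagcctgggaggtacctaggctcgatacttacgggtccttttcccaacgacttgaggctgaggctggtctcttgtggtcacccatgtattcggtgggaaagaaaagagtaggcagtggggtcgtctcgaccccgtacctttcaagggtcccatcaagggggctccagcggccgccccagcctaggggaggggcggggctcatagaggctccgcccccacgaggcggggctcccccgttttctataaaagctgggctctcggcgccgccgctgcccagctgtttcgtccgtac
A match is a run of letters and not a measured site, and its absence says only that these letters are not in this window.

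Of 50 further pathway genes, all tested, 13 were called higher and 13 lower (52.0% called), or 2 and 24 under spike-in scaling. Of all features 45.4% were called, 28% higher and 17.4% lower, and of named genes 47.4%. The counts by role below are to be read beside these shares, and a difference from them was not tested. The median log2 fold change of the 50 genes was 0.08, beside 0.10 for all features. Among 11 genes of membrane nucleation and lipid supply, 5 were higher and 2 lower. Rubcn, the inhibitory Rubicon subunit that binds the Uvrag form of the lipid kinase complex, ran from 3.04 to 3.29 in metformin plus CCl4 livers, against 1.35, 1.88, 1.84 and 2.56 in CCl4 mice 1 to 4, with a log2 fold change of 1.30 ± 0.19 (adjusted p = 0.000398, limma). Nrbf2, a subunit of the Atg14 form of that complex, ran from 2.61 to 3.42 in metformin plus CCl4 livers, against 3.74 to 4.00 in CCl4 livers, with a log2 fold change of -0.90 ± 0.17 (adjusted p = 0.00154, limma). For both genes the groups did not overlap. Zfyve1 (DFCP1), which marks the membrane domain where autophagosomes form, rose by 0.88 ± 0.21 (adjusted p = 0.00611, limma), with CCl4 mouse 4 inside the metformin plus CCl4 range. Under spike-in scaling Rubcn had 0.75 and still passed, and Zfyve1 had 0.32 and did not (adjusted p = 0.0367 and 0.351, limma).

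Among 18 selective receptors and related proteins, 4 were higher and 7 lower. Trp53inp1, a p53-induced stress protein that binds LC3, ran from 2.68 to 4.81 in metformin plus CCl4 livers, against 4.91 to 5.99 in CCl4 livers, with a log2 fold change of -2.08 ± 0.39 (adjusted p = 0.00187, limma). For the mean of its probes it was -1.78 (adjusted p = 0.00323, limma). Retreg1, a receptor for pieces of the endoplasmic reticulum, ran from 2.80 to 3.89 in metformin plus CCl4 livers, against a lowest of 3.89 and a median of 4.72 in CCl4 livers, with a log2 fold change of -1.18 ± 0.26 (adjusted p = 0.00421, limma). CCl4 mouse 4 was that lowest one and barely cleared the metformin plus CCl4 range. Wdfy3 (ALFY), a large scaffold that brings aggregates to autophagosomes, ran from -0.80 to -0.19 in metformin plus CCl4 livers, against 0.43 to 0.60 in CCl4 livers, a clean separation with a log2 fold change of -1.02 ± 0.12 (adjusted p = 0.00016, limma), or -0.52 for the mean of its probes (adjusted p = 0.00602, limma). Stbd1, a glycogen-binding receptor, was higher, spanning 5.49 to 5.72 in metformin plus CCl4 livers, against 4.04 to 5.25 in CCl4 livers, with a log2 fold change of 0.83 ± 0.20 (adjusted p = 0.00675, limma) that was 0.28 under spike-in scaling (adjusted p = 0.256, limma). In slide row 1 alone Retreg1, Stbd1 and Zfyve1 had -0.96, 0.76 and 0.89 and did not pass (adjusted p = 0.0727, 0.135 and 0.0998, limma).

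Of 16 genes of fusion with the lysosome, 4 were higher and 4 lower. Snap29, a SNARE that joins the autophagosome to the lysosome together with Stx17 and Vamp8, ran from 2.68 to 3.11 in metformin plus CCl4 livers, against 1.34, 1.39, 1.44 and 1.75 in CCl4 mice 1 to 4. The groups were far apart, and the log2 fold change was 1.34 ± 0.11, or 2.53-fold (adjusted p = 3.07e-05, limma), and 0.79 under spike-in scaling (adjusted p = 0.0114, limma). For the mean of the Snap29 probes it was smaller, 0.92 (adjusted p = 2.6e-05, limma). Stx17, Vamp8, Lamp1 and Lamp2 did not pass. Of the 5 transcriptional regulators Tfe3, Mitf, Foxo1, Foxo3 and Zkscan3, 0 passed in limma by the brightest probe. Their log2 fold changes ran from -0.54 to 0.36, and 1 of them, Foxo1, had an unadjusted p below 0.05 (limma). In the authors' deposited log2 values, a second Tfe3 probe ran from 8.48 to 9.10 in metformin plus CCl4 livers, against 9.30 to 9.64 in CCl4 livers. Its group means differed by -0.64, and the deposited values cover only probes already selected by fold change and FDR.

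**Figure D4:**
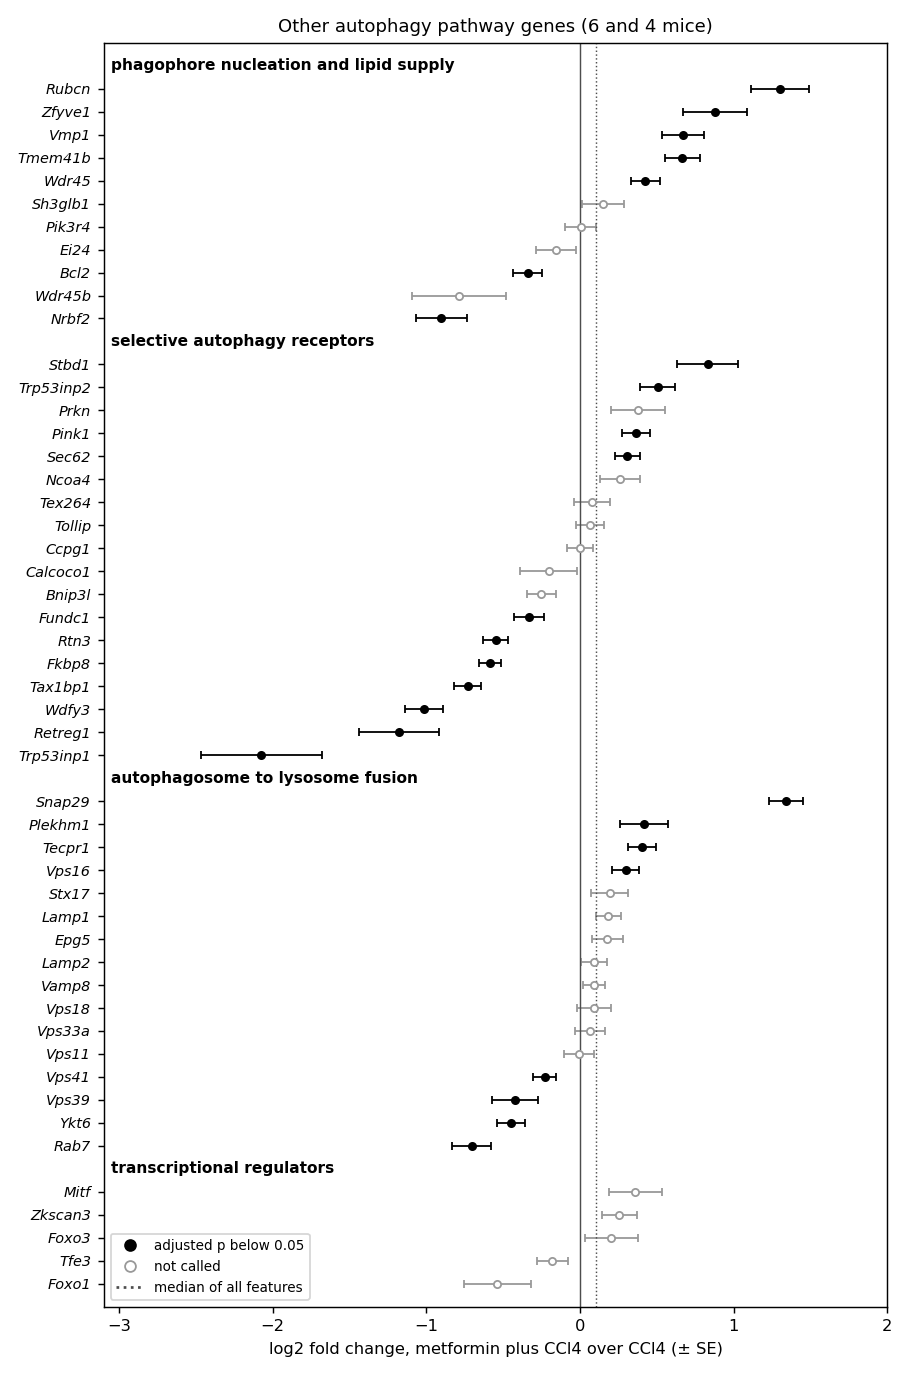
Log2 fold change (x axis, metformin plus CCl4 over CCl4, ± SE of the limma fit) of 50 further autophagy pathway genes grouped by role; filled points passed an adjusted p of 0.05, and the dotted line is the median of all features, 0.10. By the brightest probe of each gene, Snap29 at 1.34 and Trp53inp1 at -2.08 are the ends, and no transcriptional regulator passed. Under spike-in scaling all points move left by a common amount and 2 genes are called higher in place of 13.

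Markers of other liver cells moved with treatment in the same livers. Of 6 stellate cell and myofibroblast markers 5 were lower with metformin, and their summed intensity, relative to the 75th percentile, was 2.93 to 4.16 in metformin plus CCl4 livers, against 5.81 to 8.10 in CCl4 livers. Of 5 neutrophil markers 4 were lower, with sums of 8.38 to 39.5 in metformin plus CCl4 livers, against 31.5 to 63.4 in CCl4 livers. Lower too were 3 of 4 bile duct markers and 3 of 5 endothelial markers, although of the bile duct markers called, Krt7 was well above background on 4 of 6 metformin plus CCl4 arrays, and Epcam on 1 of 6 metformin plus CCl4 and 3 of 4 CCl4 arrays. The bile duct sums were 0.450 to 1.08 in metformin plus CCl4 livers, against 1.03 to 1.56 in CCl4 livers, and the endothelial sums 41.0 to 75.5 in metformin plus CCl4 livers, against 67.0 to 77.4 in CCl4 livers. A sum weighs bright probes most, and the brightest endothelial probes, those of Stab2 and Clec4g, were not called. Of 6 macrophage markers 2 were lower, with sums of 46.8 to 82.8 in metformin plus CCl4 livers, against 65.8 to 82.3 in CCl4 livers. Of 6 hepatocyte markers 2 were lower, with sums of 4762 to 6161 in metformin plus CCl4 livers, against 5685 to 7192 in CCl4 livers. Of 4 carcinoma and 4 tested lymphocyte markers 0 passed in limma, with 1 (Spp1) and 0 at an unadjusted p below 0.05, and Cd8a and Cd79a were below the filter. Over these lists 19 of 40 tested markers (47.5%) were called lower and 0 higher, beside 17.4% lower and 28% higher for all features. The part of these shifts in the autophagy gene values was not tested.

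**Figure D5:**
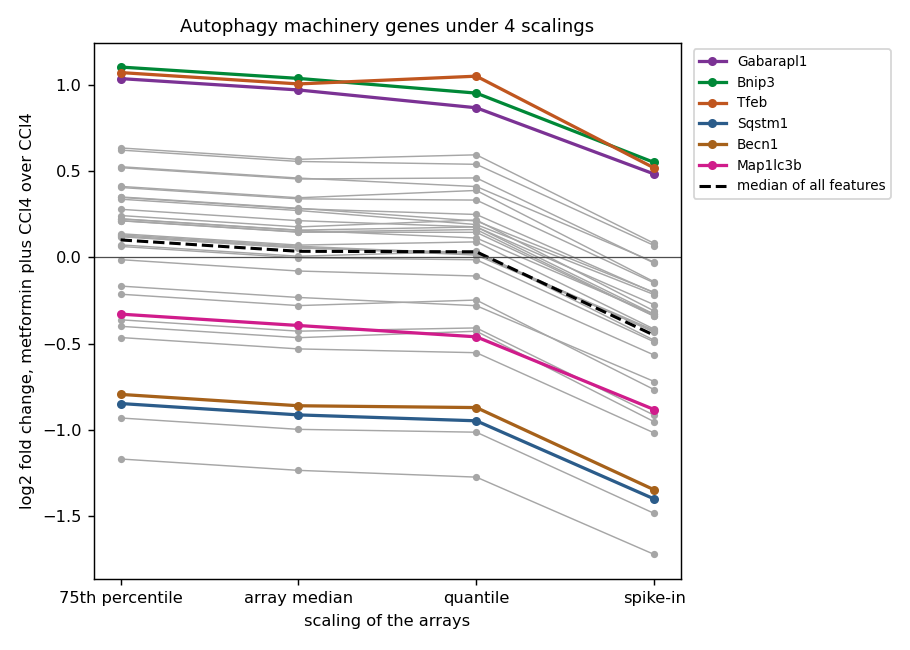
Log2 fold change (y axis, metformin plus CCl4 over CCl4) of the 35 tested genes above background in both groups under 4 ways of scaling the arrays (x axis), 1 line per gene, with 6 genes in colour and the median of all features dashed. The spike-in scaling shifts all genes down together, to a median of -0.45 for all features; Bnip3, Tfeb and Gabarapl1 stay above 0 at 0.55, 0.52 and 0.48, and Becn1, Sqstm1 and Map1lc3b stay below it.

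The authors' deposited table, a set of quantile-normalized log2 values for probes already selected by fold change and FDR, held probes of 9 of the 37 genes. Differences of group means computed from the authors' deposited table were 1.39 for Atg9b, whose CCl4 readings were not well above background, 0.95 for Bnip3, 0.87 for Gabarapl1 and 0.59 for Atg4c. They were -1.28 for Uvrag, -1.01 for Atg2a, -0.95 for Sqstm1, -0.86 for Becn1 and, through the second probe only, -0.76 for Atg7 in the authors' deposited table. These are the same arrays, so the table is no separate measurement.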

How the data were processed

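Liver RNA of 10 mice was hybridised to Agilent one-colour arrays, 1 per mouse. The titles gave each mouse its group and number.

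Per the file headers, the deposited spot intensity was made with Agilent Feature Extraction 10.7.3.1, which subtracted background and detrended the slide surface without normalizing between arrays. The same deposited files hold median spot and background intensities and flags (well above background, saturated, irregular). The authors also deposited log2 values of 4595 selected probes, quantile-normalized per the file's first line; its centring and the test behind its selection are not given in the sources used here.

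For each array, log2 of the processed intensity minus its 75th percentile was taken. Control and irregular spots were left out, spots of a probe were averaged, and 29575 of 55681 probes entered the test because, in 1 group or both, 75% or more of the arrays had them well above background. Probes were named through accessions in the RefSeq table of GRCm38.p6 (28664 matched, 27017 unnamed). The array design names build mm9, so that table's gene positions were not used. The brightest kept probe over all 10 arrays represented a gene. limma 3.58.1 in R 4.3.3 compared the groups (lmFit, eBayes, two-sided, Benjamini-Hochberg over 22183 features), and the fit was checked on simulated data. For a gene below background in a group, the bound sets the other group's mean against the higher, per array, of the lowest signal well above background and the gene's own signal. Figures were drawn with matplotlib 3.10.9.

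The genes and lists were chosen with earlier results of these data known. Values per mouse are given for the called genes with separated groups, up to 14 by size of change, and for Map1lc3b, Sqstm1, Becn1, Ulk1 and Tfeb; further pathway genes are named in full if called with an absolute log2 fold change of at least 0.8. Others are named with values where a sentence needs them. Alternatives covered background correction, 3 other scalings, the filter, the probe rule, array weights, a replicate block, slide row and leaving out each mouse. The planned correction on mean intensities was run on median ones, because the files hold no mean intensity column. Slide as a block was not run, since each slide holds 1 group. Mice of the same number in both groups did not deviate together (correlations of -0.143, -0.124, 0.085 and -0.003), so the numbers were treated as names. With 6 and 4 arrays, precision is limited by their number.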

Additional observations from a re-analysis of the deposited data

Results flagged for a closer look

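Among 72 groups of values (36 genes in each group of mice), 2 held a mouse far from the rest by Dixon's test, which chance alone gives in about 1 of 20 groups. In the metformin plus CCl4 group, mouse 3 had an Ulk2 level of 1.91, and the nearest other mouse of the group had 2.09. In the CCl4 group, mouse 4 had an Uvrag level of 3.58, and the nearest other mouse had 4.70.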

How the results depend on the processing

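Of the 19 called genes above background in both groups, 4 (Becn1, Atg2a, Atg4b and Sqstm1) kept their call and direction under all 20 alternatives fitted. All 4 were lower with metformin, and spike-in scaling lowers every log2 fold change together, so it works against rises and not against falls. Bnip3, Tfeb, Gabarapl1, Ambra1 and Atg4d, all called higher, lost their call under spike-in scaling alone. Of all 20 called genes, Gabarap, Map1lc3a and Optn lost their call in a fit without 1 mouse. Atg9b, not well above background in CCl4 livers, ranged from 0.30 to 1.52 and its calls rest on those readings. Of the 16 uncalled genes, 6 (Ulk1, Atg14, Atg9a, Atg5, Atg16l2 and Nbr1) passed under none. Spike-in scaling gave 934 features higher and 9680 lower, in place of 6217 and 3853, and called 1 autophagy gene and 2 further pathway genes higher and 24 further pathway genes lower. It turned Ulk2 to -0.15, Rb1cc1 to -0.033, Wipi2 to -0.49, Atg3 to -0.21, Atg10 to -0.14, Atg4d to -0.028 and Gabarap to -0.20; the cause was not tested. Array median scaling called 7 further pathway genes higher. The replicate block, on mice 1 to 4 of each group, called 3969 features higher, 5 autophagy genes lower (8 higher, in place of 12) and 6 further pathway genes higher, with fewer mice in the fit; Map1lc3a, among the calls lost, stayed at -0.45 (adjusted p = 0.0655, limma). Slide row as a covariate called 5 autophagy genes lower. Slide row 1 alone, with 2 and 4 mice, called 3486 features higher, 4 autophagy genes lower and, of further pathway genes, 7 higher and 6 lower. Without 1 mouse, 5438 to 6135 features were higher and 3149 to 3754 lower, autophagy genes numbered 11 to 13 higher and 6 to 8 lower, and further pathway genes 12 to 14 higher and 11 to 14 lower.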

Other observations

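CCl4 mouse 4 was the CCl4 mouse nearest to the metformin plus CCl4 mean in 11 of the 20 called genes, against 2, 2 and 5 for CCl4 mice 1, 2 and 3. Without it, 13 genes were called higher and 7 lower.

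Of 12 autophagy genes with more than 1 kept probe, 4 (Atg10, Atg4c, Bnip3 and Ulk2) had all probes called in the same direction, 3 (Atg16l2, Pik3c3 and Wipi1) had none called, and 5 (Atg7, Atg12, Gabarap, Rb1cc1 and Wipi2) had probes that differed in their call.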
